A study of Mus musculus with 6 samples.

Results

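The mRNA levels of 10 transcription factor genes that direct myeloid differentiation were examined in mouse acute myeloid leukaemia (AML) blasts: Spi1, Runx1, Runx2, Runx3, Cbfb, Gfi1, Gfi1b, Irf8, Klf4 and Myb. They were chosen by name, as factors known for their roles in myeloid cells but with earlier results of these data in view, out of 53458 genes in the annotation, and all 10 were among the 22170 genes with enough reads to be tested. RNA-seq was available from 6 leukaemic mice. In 3 mice (19, 23 and 24) the leukaemia was labelled Cebpa-/p30 Tet2+/+, and in the other 3 (5, 7 and 8) Cebpa-/p30 Tet2-/-. All mice therefore shared the Cebpa lesion, in which one allele is lost and the other makes only the short p30 form of C/EBPα, and the groups differed in Tet2, which encodes an enzyme that oxidizes methylated cytosine. The cells, labelled C57BL/6, came from C57BL/6J donor marrow with floxed Cebpa, with or without floxed Tet2, and were grown in lethally irradiated C57BL/6J.SJL recipients. The floxed alleles were recombined by Mx1-Cre, which is switched on by Poly(I)-Poly(C) through the interferon response and is not limited to a single cell type. Live donor-derived marrow cells without T, B and erythroid surface markers were sorted from moribund mice, with 1 library per mouse. The ages of the mice were not used here. The labels do not name the donor of each mouse, so mice of a genotype may have shared a donor. They were treated as independent.

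The libraries held between 13036643 and 32855343 estimated reads, with the deepest in mouse 5. Tet2 itself had 73.6, 79.5 and 98.4 CPM (counts scaled to library size with TMM factors) in Tet2+/+ mice 19, 23 and 24 and 111, 79.4 and 96.7 in Tet2-/- mice 5, 7 and 8, with a log2 fold change of 0.19 (standard error [SE] 0.19, edgeR adjusted p = 0.842). Which exons the floxed allele loses is not given in the sources used here, and a sum over the whole gene does not isolate them, so this level is no check of the labels. The retained-intron transcript Tet2-209, picked after its values were seen, took 22.96% to 26.6% of all Tet2 reads in the libraries labelled Tet2+/+ but 6.34% to 6.97% in those labelled Tet2-/-. Markers of myeloid blasts were present in every library, and Mpo, the myeloperoxidase gene, led them with a mean of 3669 CPM. The summed level of 8 mature neutrophil markers ranged from 4758 CPM in mouse 23 to 58666 CPM in mouse 7, and erythroid markers summed to 145 CPM in mouse 19 against 5.77 to 15.2 CPM in the other mice.

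PU.1, the ETS factor encoded by Spi1, opens myeloid enhancers and is required for both granulocytes and monocytes. The RUNX proteins bind DNA as a complex with CBFB, the core-binding factor, and RUNX1 is needed for definitive blood stem cells to form. GFI1 and GFI1B are zinc-finger repressors that recruit the LSD1 and CoREST complex; GFI1 acts in the neutrophil lineage and GFI1B in erythroid cells and megakaryocytes. IRF8 and KLF4 drive monocyte and dendritic cell fates, whereas MYB keeps progenitors immature and proliferating.

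The 3 RUNX genes are each transcribed from a distal and a proximal promoter, and the promoter sequences are shown first because the Runx1 transcripts are separated by promoter below. RefSeq promoter windows (GRCm38.p6, 250 bases before to 50 bases after the start) were found for 9 of the 10 genes, 13 windows in all. Capitals mark the core RUNX motif TGTGGT on either strand, which reads ACCACA on the other strand. The distal windows of Runx1 (chr16:92826025-92826324, minus strand), Runx2 (chr17:44814578-44814877, minus strand) and Runx3 (chr4:135120395-135120694, plus strand), and the proximal window of Runx1 (chr16:92697280-92697579, minus strand), read as follows.
Runx1 distal: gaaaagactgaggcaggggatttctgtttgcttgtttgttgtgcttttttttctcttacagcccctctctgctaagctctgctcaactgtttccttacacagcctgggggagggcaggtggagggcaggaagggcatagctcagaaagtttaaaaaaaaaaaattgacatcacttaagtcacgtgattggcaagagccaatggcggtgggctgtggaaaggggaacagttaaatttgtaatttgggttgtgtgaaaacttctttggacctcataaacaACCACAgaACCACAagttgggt
Runx2 distal: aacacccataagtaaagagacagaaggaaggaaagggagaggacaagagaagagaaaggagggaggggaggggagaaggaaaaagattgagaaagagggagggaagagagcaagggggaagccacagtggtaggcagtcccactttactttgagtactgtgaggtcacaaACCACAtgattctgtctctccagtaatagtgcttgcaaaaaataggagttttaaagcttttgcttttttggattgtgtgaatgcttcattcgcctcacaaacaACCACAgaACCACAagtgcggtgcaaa
Runx3 distal: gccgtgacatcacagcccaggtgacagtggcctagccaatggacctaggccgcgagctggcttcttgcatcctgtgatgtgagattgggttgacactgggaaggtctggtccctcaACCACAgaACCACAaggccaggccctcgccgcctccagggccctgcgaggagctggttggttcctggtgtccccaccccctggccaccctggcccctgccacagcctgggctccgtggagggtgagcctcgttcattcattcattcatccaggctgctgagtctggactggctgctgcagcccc
Runx1 proximal: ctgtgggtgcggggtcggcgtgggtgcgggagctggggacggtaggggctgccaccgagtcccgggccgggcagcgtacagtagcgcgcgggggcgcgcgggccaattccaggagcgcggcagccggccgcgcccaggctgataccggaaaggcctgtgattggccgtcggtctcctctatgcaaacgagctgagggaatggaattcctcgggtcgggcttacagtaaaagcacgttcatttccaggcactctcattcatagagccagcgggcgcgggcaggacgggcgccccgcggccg

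All 3 distal windows held the same stretch of 18 bases with a tandem pair of RUNX motifs, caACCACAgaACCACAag. It began 27 bases after the start in Runx1, 22 bases after it in Runx2 and at position -136 from it in Runx3. Of 32817 mouse promoter windows of the same length, 4 held this stretch, those of the 3 RUNX genes and of Gm16225, and 7 windows (0.0213%) held the spaced pair ACCACANNACCACA on either strand. A single TGTGGT occurred in 16.8% of all windows and in 3 of the 13 windows of the members. The proximal Runx1 window lacked it. The promoter types also differed in base composition, with 2 CpG dinucleotides in the distal Runx1 window and 35 in the proximal one, where the median of all windows was 7. Myb and Klf4 had 40 CpG each.

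AAATCA, the core of the GFI1 and GFI1B site, occurred in 3 of the 13 windows and in 13.99% of all windows. It stood once in the promoter of Gfi1b itself (chr2:28621933-28622232, minus strand), shown here with that motif in capitals because Gfi1b had the largest difference between the genotypes.
Gfi1b: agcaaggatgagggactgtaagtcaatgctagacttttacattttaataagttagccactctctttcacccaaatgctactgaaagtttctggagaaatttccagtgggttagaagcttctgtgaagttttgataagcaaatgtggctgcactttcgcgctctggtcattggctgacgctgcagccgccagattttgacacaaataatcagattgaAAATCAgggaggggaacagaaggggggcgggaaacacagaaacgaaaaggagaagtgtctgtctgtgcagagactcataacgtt

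The same Gfi1b window held 1 GATA motif (AGATAA or TGATAA), which 18.6% of all windows hold. The PU.1 core GAGGAA was found in 2 of the 13 windows, those of Cbfb and of proximal Runx1, against 28.3% of all windows. The C/EBP motif TTGCNNAA was found in the distal windows of Runx2 and Gfi1, against 10.8% of all windows. The KLF4 motif GGGNGTGG, which can overlap TGTGGT, was present in 3 windows (both of Gfi1 and the distal one of Runx3) and in 17.6% of all windows. The IRF motif, GAAA repeated after a gap of 2 bases, was in none of the 13 and in 3.43% of all windows. Both the Myb and Klf4 windows lacked all 8 motifs searched, which also included the MYB site TAACNG or CAACNG, held by 49.7% of all windows and by the distal Runx1 and the second Irf8 window. These matches describe letters in a short window and show no binding.

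The first comparison asked whether loss of Tet2 changed the level of any of these factors. With edgeR's quasi-likelihood test and Benjamini-Hochberg adjustment, 0 of the 10 genes passed an adjusted p of 0.05 in either direction, where 0.0451% of all tested genes were called lower and 0.00% higher. DESeq2 also called 0 of 10, against 1.47% of all genes called lower and 0.266% higher. At an unadjusted p under 0.05, 3 members were lower and 0 higher in Tet2-/- blasts by edgeR (background 5.12% lower and 3.0% higher), and DESeq2 gave the same counts (background 4.99% and 3.50%). The 3 genes were Myb, Runx1 and Gfi1b. In the same 3 genes all Tet2-/- mice lay below all Tet2+/+ mice, where 7.71% of the 13839 genes averaging 1 CPM or more did so and 8.24% lay above. With 3 mice per genotype an exact two-sided permutation test of 1 gene cannot give a p below 0.1. The median log2 fold change of the 10 members was -0.20 and that of all tested genes 0.00, with 7 members below 0 and 3 above, where 49.9% of all tested genes were below 0.

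**Figure D1:**
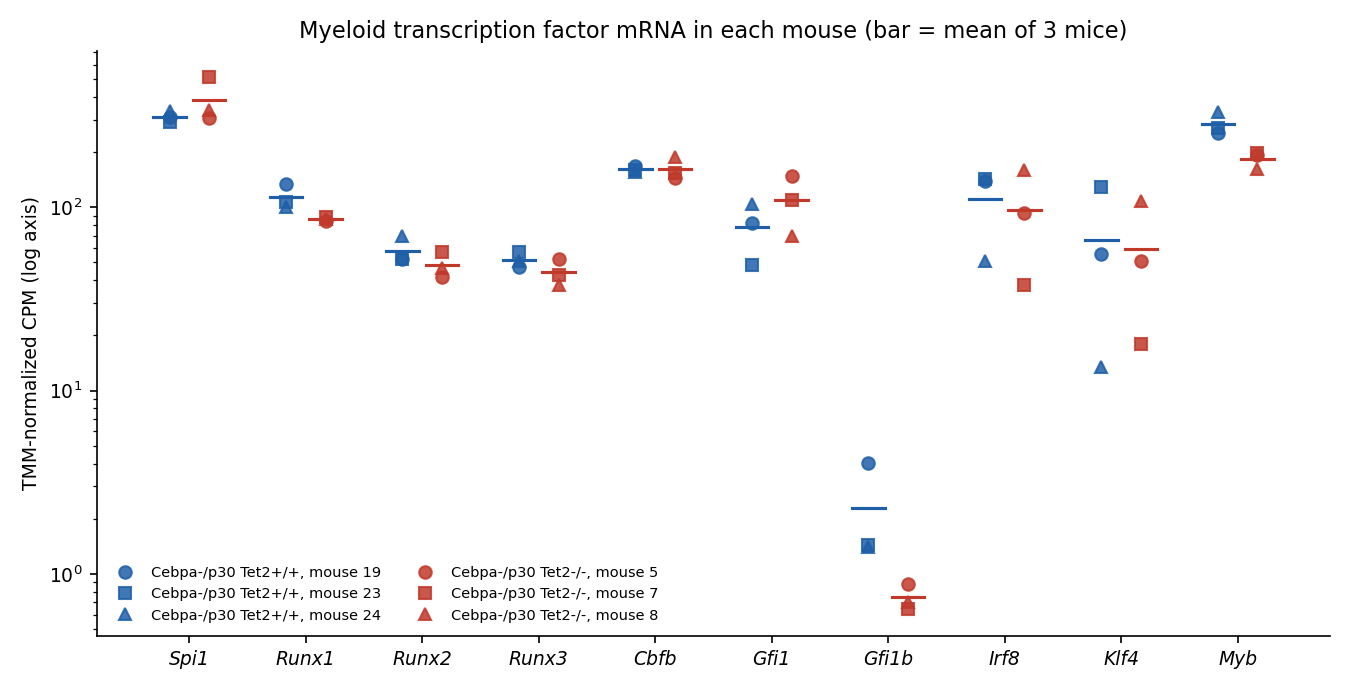
TMM-normalized CPM (log axis) of the 10 genes in each mouse, blue for Cebpa-/p30 Tet2+/+ and red for Cebpa-/p30 Tet2-/-, with the mean of 3 mice as a bar. The red points lie wholly below the blue ones for Runx1, Gfi1b and Myb, while those of Irf8 and Klf4 spread widely within each genotype.

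Myb, the progenitor factor, was the member with the smallest p. Its level was 254, 272 and 333 CPM in Tet2+/+ mice 19, 23 and 24. In Tet2-/- mice 5, 7 and 8 it was 192, 198 and 162 CPM. The genotypes did not overlap, and the means were 286 ± 41.4 and 184 ± 19.2 CPM (SD, n = 3). The log2 fold change was -0.64 (SE 0.18, 95% confidence interval -1.07 to -0.20), with an unadjusted p of 0.0102 and an adjusted p of 0.487 from edgeR and an adjusted p of 0.116 from DESeq2. Leaving out 1 mouse at a time gave values between -0.72 and -0.52. The genotypes stayed apart under all 4 scalings tried (TMM, library size only, length-scaled counts and gene TPM). Length-scaled counts and gene TPM both rest on TPM, of which the fragment Myb-204, of 164 bases, held 50.7% with 0.21% of the Myb reads. The antisense gene Gm26577 shares 559 exonic bases with Myb, or 6.26% of its exonic sequence, and the library kit did not mark strand. Gm26577 held at most 4.55 CPM in any library. The summed level of 8 blast and myeloid markers overlapped between the genotypes, at 6534 to 8443 CPM in Tet2+/+ and 6182 to 9194 CPM in Tet2-/- mice, but its genes went both ways. Of the 8, Cd34, Mpo, Kit and Cebpa had log2 fold changes below 0 and the other 4, among them Itgam and Ly6g, above 0. None of the 8 mature neutrophil markers was below 0, and their median was 0.92. The part of these differences in the level of Myb was not tested.

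Runx1, the blood stem cell factor, had 134, 107 and 101 CPM in Tet2+/+ mice 19, 23 and 24. The Tet2-/- mice 5, 7 and 8 had 84.1, 88.2 and 86.5 CPM. Every Tet2-/- value was again below every Tet2+/+ value, and the Tet2-/- mice lay close together (86.3 ± 2.06 against 114 ± 17.6 CPM, SD, n = 3). The log2 fold change was -0.40 (SE 0.16, 95% confidence interval -0.79 to -0.02, edgeR unadjusted p = 0.0436, adjusted p = 0.604). Without mouse 19, the highest, it was -0.27 (edgeR unadjusted p = 0.163). On length-scaled counts, where the genotypes overlapped, it was -0.24 (edgeR unadjusted p = 0.236). By gene TPM the genotypes did not overlap.

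The paralogues of Runx1 overlapped between the genotypes, though Runx2 did not when scaled by library size alone. Runx2, the bone factor, had 52.3, 52.5 and 69.3 CPM in Tet2+/+ mice and 41.5, 57.1 and 46.5 CPM in Tet2-/- mice. The log2 fold change of Runx2 was -0.26 (SE 0.20, 95% confidence interval -0.73 to 0.20, edgeR adjusted p = 0.777). It was -0.12 without mouse 24, -0.40 without mouse 7 and -0.45 by library size alone. Runx3, which acts in lymphoid cells, had 47.0, 56.7 and 50.7 CPM against 52.4, 42.9 and 37.7 CPM. Here the highest Tet2-/- mouse reached the Tet2+/+ range, with a log2 fold change of -0.21 (95% confidence interval -0.64 to 0.21, edgeR adjusted p = 0.809) that turned to 0.13 on length-scaled counts. The Runx3 value was -0.11 without mouse 8 and -0.36 without mouse 5.

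Cbfb, the shared partner of the 3 RUNX proteins, had 168, 160 and 155 CPM in Tet2+/+ mice and 144, 153 and 189 CPM in Tet2-/- mice, and the means were 161 ± 6.54 and 162 ± 23.5 CPM (SD, n = 3). The log2 fold change was 0.01 (95% confidence interval -0.38 to 0.40, edgeR adjusted p = 0.995). The ratio of Runx1 to Cbfb within each mouse was -0.32, -0.57 and -0.62 on the log2 scale in Tet2+/+ mice and -0.78, -0.79 and -1.12 in Tet2-/- mice. These ratios did not overlap (exact permutation test, two-sided p = 0.1, adjusted over 7 ratios 0.35). The difference between the genotypes was -0.39, and -0.20 by gene TPM. The Runx2 to Runx1 and Runx3 to Runx1 ratios differed by 0.13 and 0.17 between the genotypes (adjusted p = 0.8 each, exact permutation test). Without mouse 19 these differences were -0.06 and -0.02, and by gene TPM they were -0.034 and 0.40.

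**Figure D2:**
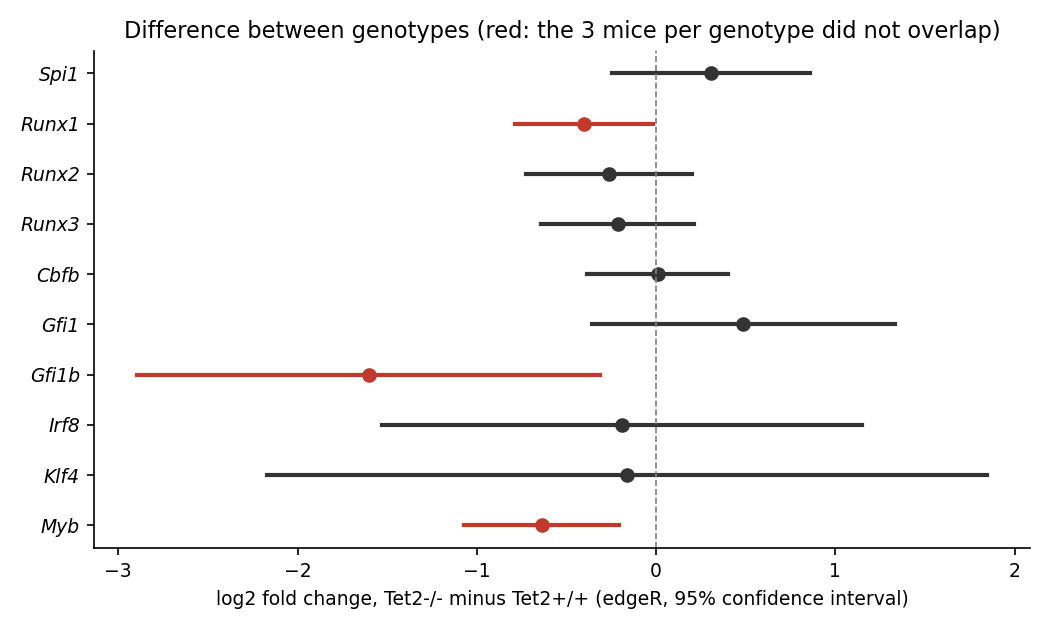
Log2 fold change of each gene, Tet2-/- minus Tet2+/+, with its 95% confidence interval from edgeR; red marks genes whose mice did not overlap between genotypes. The intervals of Runx1, Gfi1b and Myb lie below 0, and that of Klf4, from -2.17 to 1.85, is the widest.

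Runx1 transcripts were then separated by promoter, since the distal promoter (P1) and the proximal one (P2) give proteins with different N-termini and are used at different stages of blood development. In the annotation P1 starts at position 92826149 of chromosome 16 and P2 at 92697328, 128821 bases apart, on the minus strand. Runx1-201, Runx1-204 and Runx1-207 begin at P1, Runx1-202 and Runx1-206 at P2, and Runx1-203 begins 1203 bases downstream of P2. Only starts within 1000 bases of P1 or P2 were grouped with it, so Runx1-203 was counted with neither. Levels here are in TPM, which corrects for transcript length.

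P1 transcripts held 57.4%, 35.2% and 51.2% of the Runx1 TPM in Tet2+/+ mice 19, 23 and 24. In Tet2-/- mice 5, 7 and 8 they held 44.2%, 71.0% and 38.3%. The spread within a genotype was larger than the difference (47.9% ± 11.4 against 51.2% ± 17.4, SD, n = 3; exact permutation test, two-sided p = 0.8). The difference of 3.28 percentage points became -3.08 without mouse 23 and -6.64 without mouse 7. The short fragment Runx1-204, of 336 bases and at most 21.6 estimated reads per library, ranged from 1.24 to 5.90 TPM.

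Summed over promoters, P2 transcripts had 8.10, 7.18 and 6.08 TPM in Tet2+/+ mice and 3.91, 3.26 and 5.64 TPM in Tet2-/- mice. All Tet2-/- mice lay below all Tet2+/+ mice, at 4.27 ± 1.23 against 7.12 ± 1.01 TPM (SD, n = 3; exact permutation test, two-sided p = 0.1). P1 transcripts overlapped, at 7.34 ± 3.25 against 8.66 ± 2.71 TPM (SD, n = 3; exact permutation test, two-sided p = 0.7). Runx1-203, which the limit of 1000 bases leaves out of P2, had 0 TPM in mouse 19 and 2.47 TPM in mouse 8. Counted with P2, it would bring Tet2-/- mouse 8 up to Tet2+/+ mouse 19, so the P2 separation depends on this grouping. Whether P1 and P2 differed in their response was tested only through the P1 share above.

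By limma on log2(TPM + 1), 0 of the 4 Runx1 transcripts with a mean of at least 1 TPM passed an adjusted p of 0.05, where 0.0210% of 61991 transcripts were called lower and 0.00968% higher. At an unadjusted p under 0.05, 1 of the 4 was lower (background 3.61% lower and 2.35% higher). This was Runx1-202, the main P2 transcript, with 7.94, 6.88 and 6.06 TPM in Tet2+/+ mice and 3.88, 3.22 and 5.45 TPM in Tet2-/- mice. Its log2 fold change on the log2(TPM + 1) scale was -0.63 (SE 0.23, unadjusted p = 0.0333, adjusted p = 0.796, limma). Runx1-201, the full-length P1 transcript, had 6.17, 4.46 and 4.74 TPM against 3.13, 5.01 and 3.05 TPM, and here Tet2-/- mouse 7 lay above 2 of the 3 Tet2+/+ mice. Its log2 fold change was -0.39 (SE 0.25, adjusted p = 0.824, limma). Runx1-203 was listed at 0 in mouse 19 and at 1.25 to 3.58 TPM in the other mice, with a log2 fold change of 0.40 (SE 0.61, limma) that was -0.26 without mouse 19. Runx1-204 differed by 0.046 (SE 0.49, limma).

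**Figure D3:**
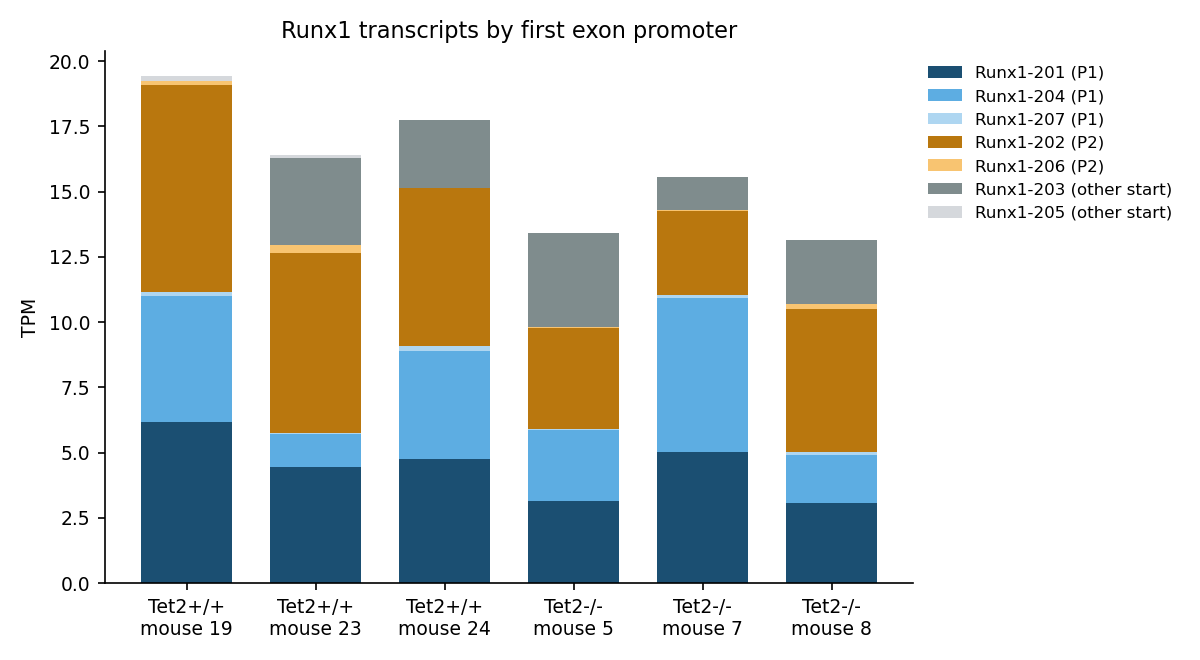
Stacked TPM of the 7 annotated Runx1 transcripts in each mouse, coloured by the promoter of their first exon (blue shades P1, orange shades P2, grey other starts). The orange P2 segment is smaller in every Tet2-/- mouse, 3.26 to 5.64 TPM, than in any Tet2+/+ mouse, 6.08 to 8.10 TPM. Runx1-203, which starts 1203 bases downstream of P2, is drawn in grey. Counting it with P2 would bring Tet2-/- mouse 8 up to Tet2+/+ mouse 19.

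Among the zinc-finger repressors, Gfi1b showed the largest difference of the 10 genes at the lowest level. It had 4.01, 1.45 and 1.41 CPM in Tet2+/+ mice 19, 23 and 24, from 67, 27 and 20 reads. The Tet2-/- mice 5, 7 and 8 had 0.886, 0.643 and 0.705 CPM, from 28, 10 and 13 reads. The genotypes did not overlap, and mouse 19 stood far above the rest. The log2 fold change was -1.60 (SE 0.55, 95% confidence interval -2.90 to -0.31, unadjusted p = 0.0219, edgeR adjusted p = 0.568). Without mouse 19 it was -0.93 (edgeR unadjusted p = 0.0903), and on length-scaled counts, where the genotypes overlapped, it was -2.79 (SE 1.63, edgeR).

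Mouse 19 also had the erythroid marker sum of 145 CPM, most of it from Hbb-bt, a beta globin gene, at 83.0 CPM. Of the 8 erythroid markers 4 averaged under 1 CPM. In the remaining mice the sum was 5.77 and 6.16 CPM in Tet2+/+ and 7.71 to 15.2 CPM in Tet2-/- mice, a sum led by globin genes. All 7 erythroid markers tested had log2 fold changes below 0 over the 6 mice, with a median of -2.21. Of the 8 megakaryocyte and platelet markers 7 were below 0, with a median of -0.48. The part of erythroid cells and megakaryocytes in the levels of Gfi1b was not tested. In these bulk samples fewer cells of a type and less RNA per cell cannot be told apart.

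Gfi1, the neutrophil-lineage repressor, had 81.7, 48.5 and 104 CPM in Tet2+/+ mice and 148, 110 and 69.3 CPM in Tet2-/- mice. The genotypes overlapped (78.0 ± 27.9 against 109 ± 39.4 CPM, SD, n = 3), with a log2 fold change of 0.49 (SE 0.36, 95% confidence interval -0.36 to 1.33, edgeR adjusted p = 0.776). Leaving out mouse 5 or 23 lowered this value to 0.19 or 0.22, and leaving out mouse 24 raised it to 0.75. The log2 ratio of Gfi1b to Gfi1 was -4.87 ± 0.81 in Tet2+/+ and -6.40 ± 0.48 in Tet2-/- mice (SD, n = 3), without overlap (exact permutation test, two-sided p = 0.1, adjusted over 7 ratios 0.35). By gene TPM the genotypes overlapped in this ratio, with a difference of -1.93 (exact permutation test, two-sided p = 0.3).

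Spi1 had 312, 291 and 334 CPM in Tet2+/+ mice and 309, 511 and 338 CPM in Tet2-/- mice. A single mouse, number 7, exceeded the others, and it was also the mouse with most mature neutrophil marker RNA. The means were 312 ± 21.6 and 386 ± 110 CPM (SD, n = 3), and the log2 fold change was 0.31 (SE 0.23, 95% confidence interval -0.25 to 0.86, edgeR adjusted p = 0.783). Without mouse 7 it was 0.051. The Spi1 to Gfi1 ratio differed by -0.21 on the log2 scale (adjusted p = 0.8, exact permutation test), and by 0.05 without mouse 23 and 0.19 without mouse 5.

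The monocyte factors varied far more between mice of a genotype than between genotypes. Irf8 had 139, 142 and 50.8 CPM in Tet2+/+ mice 19, 23 and 24 and 93.6, 37.7 and 160 CPM in Tet2-/- mice 5, 7 and 8. The highest mouse exceeded the lowest 2.80-fold within Tet2+/+ and 4.26-fold within Tet2-/-. The log2 fold change was -0.19 (SE 0.57, 95% confidence interval -1.53 to 1.15, edgeR adjusted p = 0.959) and lay between -0.75, without mouse 8, and 0.20, without mouse 7.

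Klf4 spread still more, with 55.6, 130 and 13.4 CPM in Tet2+/+ and 51.1, 18.0 and 109 CPM in Tet2-/- mice. Its highest mouse exceeded its lowest 9.70-fold in Tet2+/+ and 6.04-fold in Tet2-/-, and the log2 fold change of -0.16 (SE 0.85, 95% confidence interval -2.17 to 1.85, edgeR adjusted p = 0.982) was 0.77 without mouse 23 and -0.93 without mouse 8. The SD of log2 CPM within a genotype was 1.47 for Klf4 and 0.95 for Irf8, larger than in 97.6% and 91.4% of the 13839 genes, whose median was 0.34. Runx1, Cbfb and Myb were at the other end, with SDs larger than in only 13.4%, 12.2% and 18.9% of these genes. These intervals leave differences of over 2-fold in either direction possible for Irf8 and Klf4.

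Irf8 and Klf4 shared their order of mice. Within each genotype both were highest in mice 23 and 8 and lowest in mice 24 and 7. The summed level of 8 monocyte and macrophage markers had the same highest and lowest mice, with 2432, 3575 and 1828 CPM in Tet2+/+ mice 19, 23 and 24 and 4865, 2487 and 5719 CPM in Tet2-/- mice 5, 7 and 8. None of the 8 was under 1 CPM on average, and Ly6c2 led them with a mean of 1952 CPM. Ly6c2 itself was highest in mice 19 and 5 and lowest in mice 24 and 7. Csf1r, Ccr2 and Cx3cr1 shared both the highest and the lowest mice of the sum. F13a1, Adgre1, Ms4a6c and Cd14 departed from them in part. Mature neutrophil markers ran the other way at one end, since mice 23 and 8 were the lowest of their genotype, with 4758 and 10928 CPM. Gfi1 was lowest in the same mice, 23 and 8. The part of monocyte and neutrophil content in the levels of Irf8, Klf4 and Gfi1 was not tested.

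The ratio of Irf8 to Gfi1 therefore crossed 0 within both genotypes. On the log2 scale it was 0.77, 1.55 and -1.02 in Tet2+/+ mice and -0.66, -1.53 and 1.20 in Tet2-/- mice, a difference of -0.76 (adjusted p = 0.8, exact permutation test) that lay between -1.53, without mouse 8, and -0.16, without mouse 7. The Klf4 to Gfi1 ratio was -0.55, 1.41 and -2.91 against -1.53, -2.58 and 0.65, a difference of -0.47 (adjusted p = 0.8, exact permutation test) that was 0.58 without mouse 23 and 0.24 without mouse 7.

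**Figure D4:**
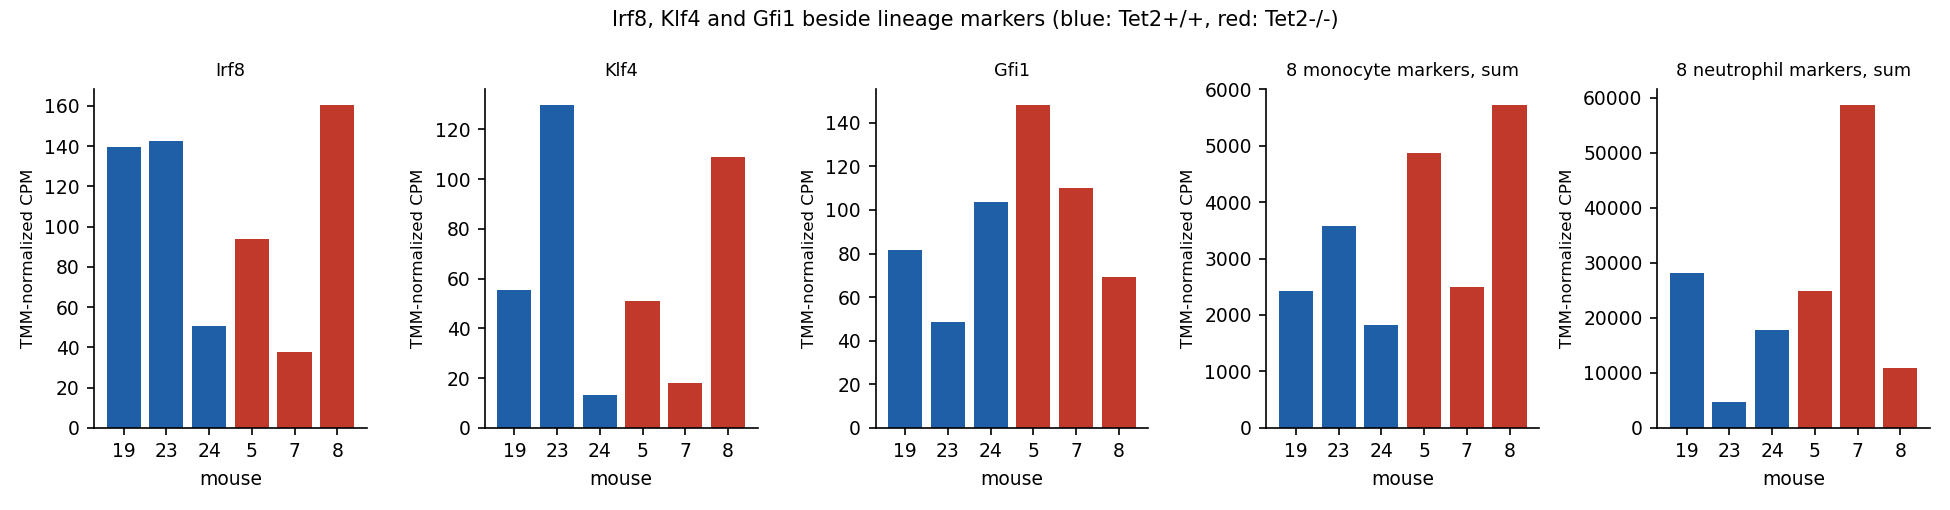
TMM-normalized CPM of Irf8, Klf4 and Gfi1 and the summed CPM of 8 monocyte and 8 mature neutrophil markers in each mouse (blue Tet2+/+, red Tet2-/-). Within each genotype mice 23 and 8 are highest for Irf8, Klf4 and the monocyte sum and lowest for Gfi1 and the neutrophil sum.

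The order of the genes by level was compared per length. By CPM per kilobase of the longest consensus coding transcript, a unit chosen after the data were seen, Spi1 led in Tet2+/+ blasts with 153 ± 10.6, followed by Myb with 77.5 ± 11.2 and Cbfb with 55.7 ± 2.26 (SD, n = 3), and these did not overlap with their neighbours. Irf8 (39.0 ± 18.3), Gfi1 (27.3 ± 9.74), Klf4 (21.9 ± 19.4) and Runx1 (19.5 ± 3.01) followed, and each of these overlapped with the next of the 4. Runx1 lay above Runx3 (13.2 ± 1.27), Runx3 above Runx2 (8.98 ± 1.51) and Runx2 above Gfi1b (1.26 ± 0.82), each without overlap. In Tet2-/- blasts Spi1 again led with 190 ± 53.9 CPM per kilobase (SD, n = 3). Cbfb (56.1 ± 8.11) and Myb (49.8 ± 5.20) came in the reverse order and overlapped, while the order from Runx1 (14.7 ± 0.35) through Runx3 (11.4 ± 1.92) and Runx2 (7.48 ± 1.23) to Gfi1b (0.41 ± 0.07) stayed separated.

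By summed gene TPM the order was similar at the top and less clear below, with 3 of 9 neighbouring pairs apart in Tet2+/+ and 2 in Tet2-/- mice against 6 and 4 by CPM per kilobase. Short annotated fragments weigh heavily on TPM. Myb-204, of 164 bases, held 50.7% of the Myb TPM and 0.21% of its reads, and Gfi1b-203, of 238 bases, held 87.6% of the Gfi1b TPM and 8.55% of its reads. Gfi1b-203 was at 21.7 TPM in mouse 19, 2.60 in mouse 5 and 0 in the other mice. Spi1-203, of 402 bases, held 40.0% of the Spi1 TPM and 10.9% of its reads, and Runx2-205, of 440 bases, 42.1% of the Runx2 TPM and 2.78% of its reads. For the other members the transcript with the highest mean TPM was a longer coding one: Runx3-201 (3884 bases), Cbfb-203 (2487), Gfi1-202 (2639), Irf8-201 (2847) and Klf4-201 (3029).

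**Figure D5:**
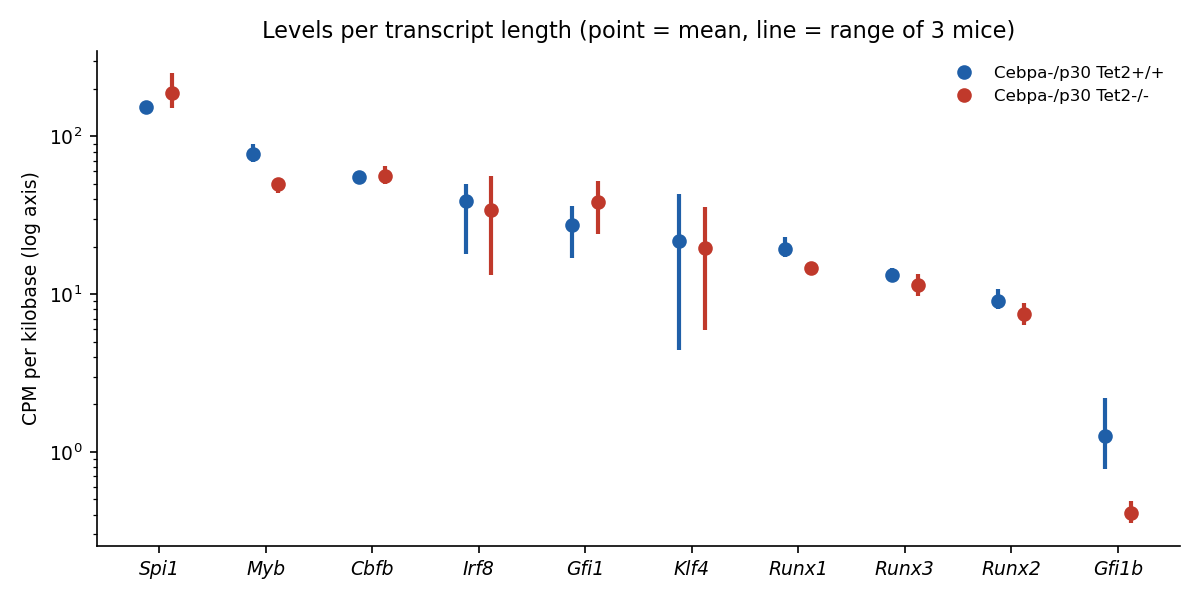
CPM per kilobase (log axis) of the 10 genes in each genotype, with the mean as a point and the range of 3 mice as a line, ordered by the Tet2+/+ mean. Spi1 is highest and Gfi1b lowest in both genotypes, and Klf4 has the longest line in both, 4.42 to 42.8 in Tet2+/+ and 5.94 to 35.9 in Tet2-/- mice.

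Partners and known targets of these factors were read from the same all-gene fit in 8 lists. The lists, like the members, were made with earlier results in view, so their counts describe these genes and test nothing about the lists. Over all tested genes edgeR called 0.0451% lower and 0.00% higher, an unadjusted p under 0.05 was reached by 5.12% lower and 3.0% higher, and DESeq2 called 1.47% lower and 0.266% higher. With edgeR, only Sox4, a progenitor factor listed among MYB targets, passed the adjusted threshold. Of 15 MYB targets and relatives 1 was called lower and 0 higher (all genes, 0.0451% and 0.00%), and 3 were lower at an unadjusted p under 0.05 (all genes, 5.12%), with a list median of 0.021 on the log2 scale that changed sign under 5 of 8 alternatives. Sox4 had 60.0, 87.1 and 69.5 CPM in Tet2+/+ mice and 15.2, 13.9 and 10.1 CPM in Tet2-/- mice. The groups were far apart, with a log2 fold change of -2.46 (SE 0.24, edgeR adjusted p = 0.0348), though with any 1 of the 6 mice left out 0 genes of the lists were called. Cd34, the stem and progenitor antigen, had 224 ± 74.9 against 84.6 ± 49.9 CPM (SD, n = 3) without overlap, a log2 fold change of -1.41 (SE 0.50, edgeR adjusted p = 0.582). Gata3, at 1.15 and 0.50 CPM, was near the lower limit of detection. Flt3, a progenitor receptor, was 8.28 ± 4.82 and 27.9 ± 28.5 CPM (SD, n = 3), the highest in mouse 5.

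The 15 stem cell, erythroid and megakaryocyte factors that work with RUNX1 and GFI1B had a median of -0.83 (-1.19 without mouse 23 to -0.74 without mouse 19), with 0 called by edgeR, 5 lower and 0 higher at an unadjusted p under 0.05, and 2 called lower by DESeq2 (over all genes, 5.12% lower and 3.0% higher at an unadjusted p by edgeR, and 1.47% called lower by DESeq2). Of the 10 that averaged 1 CPM or more, 4 did not overlap and all 4 were lower in Tet2-/- mice, where 7.71% of all such genes lay lower and 8.24% higher without overlap, a description only, since the list was made with earlier results in view. Gata2, a stem and progenitor factor, had 23.3, 27.9 and 27.3 CPM in Tet2+/+ mice and 8.60, 4.44 and 5.21 CPM in Tet2-/- mice. Its log2 fold change was -2.10 (SE 0.30, adjusted p = 0.117 by edgeR and 5.4e-08 by DESeq2). Zfpm1, the GATA cofactor FOG1, had 9.37 ± 2.28 against 3.66 ± 1.15 CPM (SD, n = 3), with an adjusted p of 0.419 by edgeR and 0.0158 by DESeq2. Marker sums were 111 to 148 CPM in Tet2+/+ against 43.2 to 138 CPM in Tet2-/- for megakaryocytes and 414 to 505 against 175 to 364 CPM for basophils and mast cells. Their part in the levels of Gata2 and Zfpm1 was not tested.

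The RUNX partners and corepressors were represented by 20 tested genes, with 0 called by edgeR or DESeq2, 1 lower at an unadjusted p under 0.05, a share close to the 5.12% of all genes, and a median of 0.077 (-0.062 without mouse 7, -0.10 by library size alone). Cbfa2t3, the corepressor ETO2, was that gene, with 58.3, 74.0 and 43.0 CPM against 36.0, 27.4 and 37.0 CPM. The genotypes did not overlap, and the log2 fold change was -0.80 (SE 0.24, edgeR adjusted p = 0.506). The coactivator Ep300 had 232 ± 17.7 against 308 ± 62.6 CPM (SD, n = 3), with all Tet2-/- mice higher (edgeR adjusted p = 0.654), and Runx1t1 was below 0.5 CPM everywhere. Of 15 ETS and PU.1 partner factors, 0 were called by either tool, 0 passed an unadjusted p of 0.05 and the median was 0.010 (-0.14 without mouse 7, -0.18 by library size alone). Elf1 (168 ± 18.2 against 130 ± 17.2 CPM), Irf4 (4.73 ± 1.90 against 2.57 ± 1.06 CPM) and Etv6 (193 ± 15.5 against 160 ± 8.40 CPM) had the smallest p in that list. They were the 3 of the 15 genes without overlap, all lower in Tet2-/- mice, and over all genes 7.71% lay lower and 8.24% higher.

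The 20 PU.1 targets had a median of 0.56, or 0.24 without mouse 7, with 0 called by edgeR or DESeq2 and 0 lower and 2 higher at an unadjusted p under 0.05 (all genes, 3.0% higher). Without overlap, 0 of the 20 lay lower and 3 higher, where 8.24% of all genes lay higher. Cyba, a subunit of the phagocyte oxidase, had 367, 307 and 262 CPM in Tet2+/+ mice and 537, 607 and 434 CPM in Tet2-/- mice. The genotypes did not overlap, and its log2 fold change was 0.75 (SE 0.22, edgeR adjusted p = 0.491). Csf2rb, the common beta chain of the GM-CSF, IL-3 and IL-5 receptors, had 411 ± 88.6 against 636 ± 101 CPM (SD, n = 3), again without overlap, with a log2 fold change of 0.63 (SE 0.24, edgeR adjusted p = 0.593). Ncf4, another oxidase subunit, had 354 ± 174 against 665 ± 293 CPM (SD, n = 3) and overlapped. The 8 mature neutrophil markers summed to 28071, 4758 and 17862 CPM in Tet2+/+ mice 19, 23 and 24 and to 24831, 58666 and 10928 CPM in Tet2-/- mice 5, 7 and 8, and their part in the levels of the PU.1 targets was not tested.

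The 20 monocyte and dendritic cell genes related to IRF8 and KLF4 had a median of 0.17, which ranged from -0.40 without mouse 8 to 0.48 without mouse 23 (-0.050 without mouse 24), with 0 called by edgeR, 1 lower and 1 higher at an unadjusted p under 0.05 (all genes, 5.12% and 3.0%), and 1 higher by DESeq2 (all genes, 0.266%). The gene called by DESeq2, Ly6c2, the monocyte antigen, had 1623, 1428 and 1049 CPM in Tet2+/+ mice and 2993, 2124 and 2495 CPM in Tet2-/- mice. All Tet2-/- mice were higher, with a log2 fold change of 0.89 (SE 0.27, adjusted p = 0.512 by edgeR and 0.0248 by DESeq2). Id2, an inhibitor of basic helix-loop-helix factors used by dendritic cells, had 243 ± 46.0 against 150 ± 42.5 CPM (SD, n = 3) and overlapped between genotypes.

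Of the GFI1 and GFI1B corepressor complex, 11 of 12 genes were tested, 0 were called by edgeR or DESeq2 and 0 passed an unadjusted p of 0.05, with a median of -0.052 (0.0073 without mouse 24). Rcor2 (2.43 ± 0.85 against 1.12 ± 0.62 CPM), Hdac1 (110 ± 10.1 against 124 ± 4.36 CPM) and Hmg20b (39.7 ± 4.51 against 46.3 ± 8.29 CPM) had the smallest p, and all 3 overlapped between genotypes. The 12 neutrophil progenitor genes had a median of 0.73, or 0.25 without mouse 7 and 1.13 without mouse 19, with 0 called by edgeR or DESeq2 and 1 higher at an unadjusted p under 0.05 (all genes, 3.0%). This was Ms4a3, a granulocyte-monocyte progenitor gene, with 193 ± 55.8 against 311 ± 20.1 CPM (SD, n = 3), giving a log2 fold change of 0.69 (SE 0.24, edgeR adjusted p = 0.580). Mpo lay in the other direction, with 4527, 4110 and 4230 CPM in Tet2+/+ mice and 3394, 3091 and 2662 CPM in Tet2-/- mice, without overlap (log2 fold change -0.49, standard error 0.25, edgeR adjusted p = 0.664). Elane, the neutrophil elastase gene, had 474 ± 439 against 1085 ± 220 CPM (SD, n = 3) and overlapped.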

How the data were processed

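RNA was extracted from sorted AML blasts of 6 mice, 3 per genotype, and sequenced as unstranded TruSeq libraries on a NextSeq instrument. The authors quantified reads with Salmon (version 0.12.0 in the submitters' processing notes) and deposited, per transcript, expected counts (estimated reads) and TPM, with transcript lengths; the build named is GRCm38.p6 (mm10). From these, the expected counts of 136288 transcripts were summed per gene of the GENCODE annotation (112 transcripts without a gene, 0.0307% to 0.0416% of reads, were left out) and rounded to whole numbers. Genes with at least 10 summed normalized counts were tested with edgeR 4.0.16 (TMM, quasi-likelihood, Benjamini-Hochberg, threshold 0.05), without covariates. DESeq2 1.42.0 was an alternative, also on length-scaled counts as in the study's methods. The biological coefficient of variation was 43.6%. Transcripts with a mean of at least 0.1 TPM were tested with limma 3.58.1 on log2(TPM + 1). Ratios used CPM + 0.5. Fits were tested on simulated data.

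The members and lists were chosen with earlier results of these data known. Named were all members, Runx1 transcripts with a mean of at least 1 TPM, the transcript with the highest TPM of each other member, called genes of each list or otherwise the 3 with the smallest p, beside any called gene. A gene that this rule names is not reported here. No member transcript matched a transcript of another gene at 95% identity over 50% of its length (BLAST+ 2.17.0). Exonic bases shared with antisense genes made up 0.88% of Runx1, 5.87% of Runx2, 3.17% of Gfi1 and 6.26% of Myb. Marker lists, by summed CPM over the 6 libraries, gave 25.0 to 94.4 for dendritic cells, 22.8 to 83.0 for B cells, 58.3 to 130 for T and NK cells, 145 to 374 for eosinophils and 6182 to 9194 for myeloid blasts.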

Additional observations from a re-analysis of the deposited data

How the results depend on the processing

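Gene tests were repeated with DESeq2, length-scaled counts, other filters and scalings; ratios with gene TPM and another pseudocount; list counts and medians with DESeq2 and library size alone. These, the isoform tests and the P1 share were also repeated without each mouse, but the overlap counts and level order were not. Apart from list medians, 282 of 336 alternative values kept direction and call (counts: within 1.5 times), though some differed much in size, 26 turned direction and 28 otherwise moved. List medians changed sign in 15 of 64 alternatives, none of them for the PU.1 target, neutrophil or stem cell lists. No member passed an adjusted p of 0.05 in any of them; the lowest was 0.116 (Myb, DESeq2), and DESeq2 gave no adjusted p for Gfi1b on length-scaled counts. Over all genes, 10 were lower and 0 higher with edgeR, against 326 and 59 with DESeq2, 322 and 64 with DESeq2 on length-scaled counts, 5 lower with edgeR on length-scaled counts, 62 and 4 without a filter on low counts, 1 higher with filterByExpr and 1 higher with RLE factors. Without each mouse in turn the number lower was 0 to 7, and was 0 without mouse 5, 7 or 8. The 3 members at an unadjusted p under 0.05 became 1 on length-scaled counts with either tool, and 1 to 3 without a mouse, 1 each without mouse 19 or 8. Non-overlapping members numbered 1 on length-scaled counts, 2 by gene TPM and 4, with Runx2 added, by library size alone, which shifts the median of all genes by -0.17. The 1 called gene of the lists became 4 with DESeq2 (Sox4, Gata2, Zfpm1 and Ly6c2) and 0 without any 1 mouse. By CPM per kilobase 6 and 4 neighbouring pairs were apart.

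Directions turned for Runx3 (0.13 on length-scaled counts with edgeR and DESeq2), for Cbfb (-0.033 and -0.031 on length-scaled counts with edgeR and DESeq2, -0.010 with filterByExpr, -0.16 by library size alone) and for the Runx2 to Runx1 ratio (-0.034 by gene TPM). Without each mouse in turn the ranges were -0.12 to 0.078 for Cbfb, -0.75 to 0.20 for Irf8, -0.93 to 0.77 for Klf4, -0.26 to 0.80 for Runx1-203, -0.38 to 0.32 for Runx1-204, -6.64 to 9.70 percentage points for the Runx1 P1 share, and on the log2 scale -0.061 to 0.35 for Runx2 to Runx1, -0.017 to 0.28 for Runx3 to Runx1, -0.43 to 0.19 for Spi1 to Gfi1, -1.53 to -0.16 for Irf8 to Gfi1 and -1.58 to 0.58 for Klf4 to Gfi1. The causes of these differences were not tested. Counting only reads of consensus coding transcripts, an alternative chosen after seeing the data, gave -1.48 for Gfi1b, -0.40 for Runx1 and -0.63 for Myb. No paired analysis was possible because the mice of the genotypes share no numbers. Gfi1b, with 10 to 67 reads per library, and Runx1-204 are limited by depth.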
